A study of Mus musculus with 15 samples.

Results

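The translation initiation factor genes were taken as every protein-coding gene whose symbol begins with Eif1 to Eif6, without Eif4enif1 and Eif4e1b. This gave 53 of the 55401 genes counted in mouse oocytes, sorted by role into 6 genes of scanning and start codon choice, 6 of eIF2 and its alternatives, 4 eIF2 kinases, 5 subunits of eIF2B, 14 genes of eIF3, 11 of eIF4F and its partners, 3 4E-binding proteins, and 4 of subunit joining, eIF5A and eIF6. Each library was made from a pool of 6 oocytes of Kunming mice aged 12 to 14 days by the series record, with SMART-Seq2, which primes on poly(A) and amplifies full-length cDNA by PCR. Of 15 libraries, 3 came from germinal vesicle oocytes grown in vivo (IVV, numbered 2, 3 and 4), 3 from oocytes of preantral follicles grown in vitro to day 10 without neurotrophin-4, or NT-4 (IVG), 3 to day 10 with it (IVG-NT), 3 to day 6 without it (IVG day 6) and 3 to day 6 with it (IVG-NT day 6). All animals were of the same outbred strain, none carried a labelled allele, and the oocytes of a library were pooled. IVV oocytes came from antral follicles, so they differed from the in vitro groups in follicle history as well as in place of growth. The paper names 12 to 14 days for the mice whose follicles were then cultured for 6 or 10 days. It does not state an age for the sequenced IVV oocytes, so age may differ as well.

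Initiation begins when eIF2 with GTP carries the initiator tRNA to the small ribosomal subunit, while eIF1, eIF1A and the scaffold eIF3 hold the subunit open for scanning. The eIF4F complex (the cap-binding eIF4E, the scaffold eIF4G and the helicase eIF4A) brings in the mRNA, and 4E-binding proteins can block it. A growing oocyte stores many mRNAs untranslated, and once it is full grown it transcribes little, so that regulated translation carries much of its later gene expression.

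Total counts ran from 5954262 to 55593251 per library. The 2 lowest, 5954262 and 7125348, were replicates 1 and 2 of IVG-NT day 6, called shallow here. One rRNA gene, CT010467.1, held between 12.5% and 37.9% of all counts in 9 libraries, called rRNA-rich, which were the first and second of every in vitro group and number 3 of IVV. In the other 6, called rRNA-poor, it held under 1%. All 8 oocyte markers had counts in every library and summed to 9400 to 17540 counts-per-million (CPM), against 48.6 to 306 for 11 granulosa cell markers, 0 to 24.7 for 6 of theca and stroma, 0 to 53.1 for 5 of leukocytes and 0 to 37.7 for 4 of red cells.

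The promoters of 3 genes named in the results are shown from RefSeq (GRCm38.p6). They run from 100 bases before to 20 bases after the annotated start of transcription. Eif1b had the highest mean level, and Eif4g3 and Eif2s3x were the members that passed the unadjusted threshold between groups. Capitals mark the letters GGGCGG on either strand (a GC box), which the Eif4g3 window shown did not hold. Eif4g3 has 2 listed starts, and the window is that of the start with the lower coordinate. The letters CCAAT and TATAAA were also searched on both strands and were not in these windows, and none of the motifs overlapped.
Eif1b, chr9:120492506-120492625, plus strand: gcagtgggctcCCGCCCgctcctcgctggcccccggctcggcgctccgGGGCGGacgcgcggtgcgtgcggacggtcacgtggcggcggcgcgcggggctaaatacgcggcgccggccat
Eif4g3, chr4:137993355-137993474, plus strand: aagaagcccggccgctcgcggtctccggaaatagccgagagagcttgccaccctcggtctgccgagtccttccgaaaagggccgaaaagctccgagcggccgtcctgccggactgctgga
Eif2s3x, chrX:94212632-94212751, minus strand: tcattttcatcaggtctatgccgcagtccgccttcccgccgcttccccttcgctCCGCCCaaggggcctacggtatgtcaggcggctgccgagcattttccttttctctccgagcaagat

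Of the 53 genes, 42 had an entry in the promoter table, with 52 windows among them. GGGCGG was in 28 of the 52 windows (53.8%) and in 26.7% of all 32851 windows of this length. CCAAT was in 11 (21.2%) against 20.8% of all, and TATAAA in 1 (1.92%) against 6.10%. The annotated transcription start in the Eif2s3x window is a C followed by 4 pyrimidines, the form of start known from mRNAs of the translation machinery. That form was found at 2 of the 52 starts, against 2.51% of all.

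Levels were compared between genes per length, as fragments per kilobase of exon and per-million counts (FPKM), relative to the summed counts of a library, so that counts of CT010467.1 lower the FPKM of every other gene in a library. A level is a share of a library's counts, and in a pool of oocytes fewer oocytes with a transcript and less of it per oocyte cannot be told apart. The members took 0.915% to 1.07% of the counts outside CT010467.1 in the rRNA-poor libraries and 0.576% to 0.773% in the rRNA-rich ones. Between 45 and 52 of the 53 had a count in a given library. By mean FPKM in IVV, 6 members were over 100, 27 between 10 and 100, 15 between 1 and 10, and 5 under 1, and in the in vitro groups 4 or 5 were over 100.

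**Figure D1:**
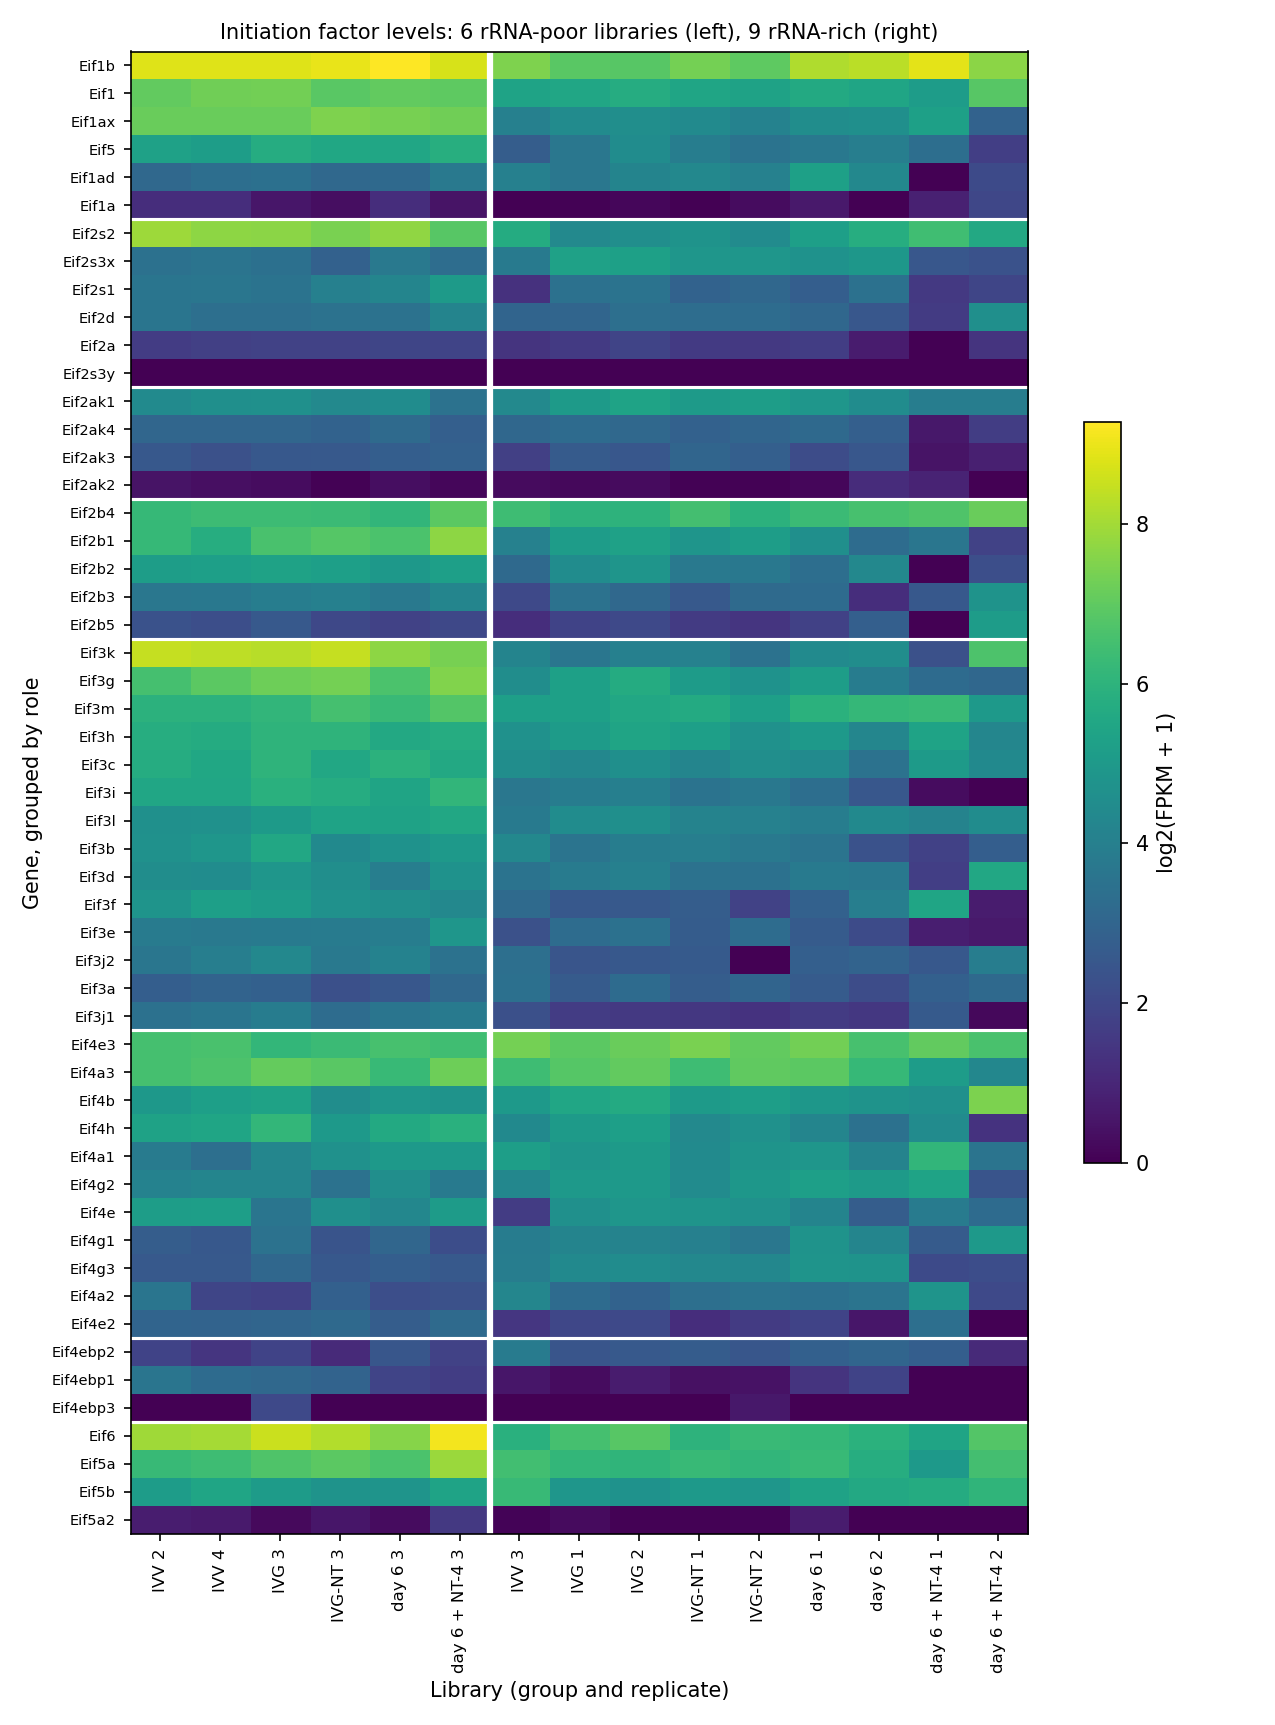
Level of each of the 53 genes (rows, grouped by role in the order of the text, with the highest mean first in each role) in each of 15 libraries (columns), as log2(FPKM + 1). The 6 rRNA-poor libraries on the left look alike, and the 9 rRNA-rich ones on the right have lower eIF3 rows and more uneven rows in the 2 shallow libraries (day 6 + NT-4, replicates 1 and 2).

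Eif1b, a paralog of the start codon factor Eif1, was the highest of the 53 genes in 10 of 15 libraries. Its FPKM was 446, 177 and 455 in IVV, 119, 115 and 447 in IVG, 161, 124 and 498 in IVG-NT. At day 6 it was 287, 314 and 617 without NT-4 and 470.4, 203 and 423 with it. In every group the values overlapped those of every other group, and the group means were 359.5 ± 158 in IVV, 227 ± 191 in IVG, 261 ± 206 in IVG-NT, and at day 6 406 ± 183 without NT-4 and 365 ± 142 with it (SD, n = 3 each). Eif1b made up 63.6% to 93.3% of the summed FPKM of Eif1 and Eif1b. Of the 2 eIF1A genes, the X-linked Eif1ax made up a median of 99.5% over all libraries and 68.7% at the lowest, in a shallow library, and Eif1a the rest.

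The gamma subunit of eIF2 has an X-linked and a Y-linked gene. The Y-linked Eif2s3y had no count in any library of these female cells, and Eif2s3x was counted in all of them. Eif2s2, which encodes the beta subunit, was the highest of its role, with an FPKM of 242, 50.9 and 206 in IVV, 19.7, 22.8 and 202 in IVG and 26.2, 21.2 and 167 in IVG-NT. Its day 6 values were 36.4, 54.3 and 210.4 without NT-4 and 86.2, 47.1 and 117 with it. In each group the rRNA-poor libraries were the high ones.

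The eIF2 kinases phosphorylate the alpha subunit and so lower general initiation. Eif2ak1 (HRI, known for its control by heme) was the highest of the 4 in every library, with 45.0% to 88.7% of their summed FPKM. It was 20.8, 19.6 and 23.7 in IVV, 32.3, 41.0 and 24.3 in IVG, 31.8, 34.7 and 19.4 in IVG-NT. On day 6 it was 28.2, 22.0 and 21.9 without NT-4 and 14.1, 14.1 and 10.2 with it. The last group lay below all others in FPKM. On TMM-normalized CPM it just overlapped IVG-NT, with 99.20 in IVG-NT day 6 replicate 2 and 99.16 in IVG-NT replicate 3. Eif2ak2 (PKR, activated by double-stranded RNA) was at or under 1.25 FPKM in all libraries, with 0 to 151 counts.

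Of the 5 subunits of eIF2B, the exchange factor that restores eIF2 with GTP, Eif2b4 was the most even. It was 72.6, 82.1 and 80.9 FPKM in IVV, 62.7, 63.0 and 81.8 in IVG, 88.5, 61.8 and 79.1 in IVG-NT. Oocytes of day 6 had 78.8, 95.1 and 67.4 without NT-4 and 103, 141 and 122 with it. The 3 IVG-NT day 6 libraries were above all others in FPKM. On TMM-normalized CPM they overlapped the others, with 260 in IVG-NT day 6 replicate 3, 301 in IVG day 6 replicate 2 and 275 in IVG-NT replicate 1. Eif2b1, which encodes the alpha subunit of the same complex, ran from 2.56 to 207 FPKM.

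In eIF3, Eif3k had the highest mean, from its rRNA-poor libraries. Its FPKM was 347, 17.0 and 328 in IVV, 11.4, 15.5 and 308 in IVG, 15.8, 10.4 and 353 in IVG-NT. At day 6 its FPKM was 20.4, 22.3 and 204 without NT-4 and 3.92, 101 and 164 with it. Eif3k encodes a small outer subunit, and the 2 kinds of library did not overlap in it. Eif3j1 and Eif3j2 share sequence (50.9% and 91.9% of their 50-base stretches occur in another gene), so the split of reads between them is uncertain.

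Among the genes of eIF4F, Eif4e3, an atypical cap-binding paralog, exceeded Eif4e and Eif4e2 in every library. It took 67.4% to 97.6% of the summed FPKM of the 3, Eif4e 1.30% to 26.1% and Eif4e2 0 to 8.08%. Eif4e3 shares exon sequence on the same strand with another annotated gene, Gm20696, which can take part of its reads. It was 92.6, 159 and 97.3 FPKM in IVV, 121, 140.5 and 70.0 in IVG, 167, 131 and 79.4 in IVG-NT. The day 6 libraries had 156, 93.7 and 93.4 without NT-4 and 129.8, 95.8 and 85.2 with it. No group stood apart in it.

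Of the helicase genes, Eif4a1 made up 55.0% to 89.5% of the summed FPKM of Eif4a1 and Eif4a2, and 28.4% of its 50-base stretches occur elsewhere, mostly in the pseudogene Eif4a-ps4. Of the scaffolds, Eif4g2, which lacks the part that binds eIF4E, made up a median of 49.0%, Eif4g3 25.5% and Eif4g1 23.2%, with Eif4g3 between 6.45% and 34.2%. The 4E-binding proteins were low: Eif4ebp1 was 0 to 11.2 FPKM and Eif4ebp2 1.16 to 13.4. Eif4ebp3 had 106 counts in 1 IVG library and 13 in 1 IVG-NT library and none elsewhere, and 65.5% of its 50-base stretches occur in another gene.

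Eif6, which keeps the large ribosomal subunit from joining too early, was 245, 57.4 and 259.7 FPKM in IVV, 90.9, 114 and 366 in IVG, 63.4, 76.6 and 296 in IVG-NT. Day 6 values were 70.6, 59.0 and 190.2 without NT-4 and 41.6, 111 and 548 with it. The rRNA-poor libraries were the high ones in each group. Eif5a, the substrate of hypusine modification, made up 99.1% to 100% of the summed FPKM of Eif5a and Eif5a2.

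Groups were compared with edgeR's quasi-likelihood test on the counts in 1 fit over all 15 libraries. A gene was called at a log2 fold change beyond 1 with an unadjusted P under 0.05, the threshold of the study's methods, and Benjamini-Hochberg adjusted p-values were taken over all 21009 genes tested. Of the 53 members, 51 passed the filter on low counts, the exceptions being Eif2s3y and Eif4ebp3. No gene of the 21009 reached an adjusted p under 0.05 in any of the 8 comparisons between groups. DESeq2's Wald test gave 51 to 715 such genes per comparison, none of them a member. At the call threshold it gave 0 members in IVG vs. IVV (against 2.54% of all genes), IVG-NT vs. IVG (0.728%), IVG day 6 vs. IVV (4.58%) and IVG vs. IVG day 6 (2.82%). It gave 1 in IVG-NT vs. IVV (2.69%) and 1 in the difference of the NT-4 effects (5.84%). In IVG-NT day 6 vs. IVG day 6 it gave 5 (12.6%) and in IVG-NT vs. IVG-NT day 6 it gave 6 (13.0%). The 3 libraries of a group came from 3 replicated experiments by the study's methods, which do not say which libraries share an experiment.

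The first comparisons asked how oocytes grown in vitro differed from those grown in vivo. In IVG vs. IVV no member was called, against 2.76% of all genes, and none had an unadjusted P under 0.05, against 579 genes. The median log2 fold change of the members was -0.05 and that of all genes -0.20, with 23 members above 0 and 28 below. The standard error of a member's log2 fold change was 0.84 at the median, so that changes smaller than several-fold were not detectable for most members. Eif2s3x had the smallest P above 0, with a log2 fold change of 1.39 ± 0.82 (SE), and Eif5b, the factor of subunit joining, the smallest below 0, with -0.90 ± 0.60 (edgeR's quasi-likelihood test, adjusted p = 1 for both). IVV held fewer rRNA-rich libraries than each in vitro group. In a fit that allowed for the kind of library 32 members were above 0. The medians there were 0.13 for the members and 0.03 for all genes.

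Eif5b was 33.5, 74.4 and 42.3 FPKM in IVV and 28.1, 25.2 and 32.9 in IVG, so that all 3 IVG values were below the 3 of IVV. On TMM-normalized CPM the groups overlapped. When the fit allowed for the kind of library Eif5b was just past the threshold, and in the rRNA-rich libraries alone it was at -1.60, where IVV had 1 library.

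In IVG-NT vs. IVV no member was called, against 3.29% of all genes, and again none had a P under 0.05, against 691 genes. The members' median log2 fold change was -0.04 and that of all genes -0.19. Eif2s3x was at 1.10 ± 0.81 and Eif2ak2 at -2.65 ± 1.70 (SE, adjusted p = 1 in edgeR's test for both). Eif2ak2 had 8 counts in each of the 3 IVG-NT libraries and 89, 20 and 65 in IVV. By DESeq2's Wald test, and in a fit of the 2 groups alone, it was past the threshold, with log2 fold changes of -2.91 and -2.67. With the kind of library allowed for, the medians were 0.0047 for the members and 0.0078 for all genes.

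In IVG-NT vs. IVG, the comparison of NT-4 at day 10, no member was called, against 1.24% of all genes. None had a P under 0.05, against 261 genes. The median log2 fold change was -0.05 for the members and 0.01 for all genes, and 50 of the 51 tested lay between -1 and 1, the exception being Eif2ak2 at -2.10 ± 1.66. Above 0, Eif4a2 had the smallest P, with 0.70 ± 0.99 (SE, adjusted p = 1 in edgeR's test for both). Libraries with the same number deviated together here, and they also shared the kind of library, rRNA-rich or rRNA-poor. A fit with a replicate block also called no member.

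Oocytes at day 6 without NT-4 were set against IVV to show the stage in culture. In IVG day 6 vs. IVV no member was called, against 4.59% of all genes, and none had a P under 0.05, against 964 genes. Of the 51 members, 17 were above 0 and 34 below, and their median log2 fold change was -0.28 beside -0.22 for all genes. Eif4g3 was at 1.32 ± 0.85 and Eif3a, which encodes the large core subunit of eIF3, at -0.73 ± 0.66 (SE, adjusted p = 1 in edgeR's test for both). IVV held fewer rRNA-rich libraries than IVG day 6. With the kind of library allowed for, 25 members were above 0. The medians were then -0.0019 for the members and -0.0084 for all genes.

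From day 6 to day 10 without NT-4 (IVG vs. IVG day 6) no member was called, against 2.90% of all genes, and none had a P under 0.05, against 609 genes. The median was 0.04 for the members and 0.05 for all genes. Eif1b had the smallest P below 0, at -0.97 ± 0.64, and Eif4h, a partner of the helicase, the smallest above 0, at 0.86 ± 0.81 (SE, adjusted p = 1 in edgeR's test for both). Same-numbered libraries deviated together here too, but they also shared the kind of library, so a shared experiment and a shared kind cannot be told apart. In the fit with the replicate block Eif1b was past the threshold, at -1.15 ± 0.46 (SE, adjusted p = 1 in edgeR's test). Each IVG library was below the IVG day 6 library of its number in Eif1b FPKM.

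**Figure D2:**
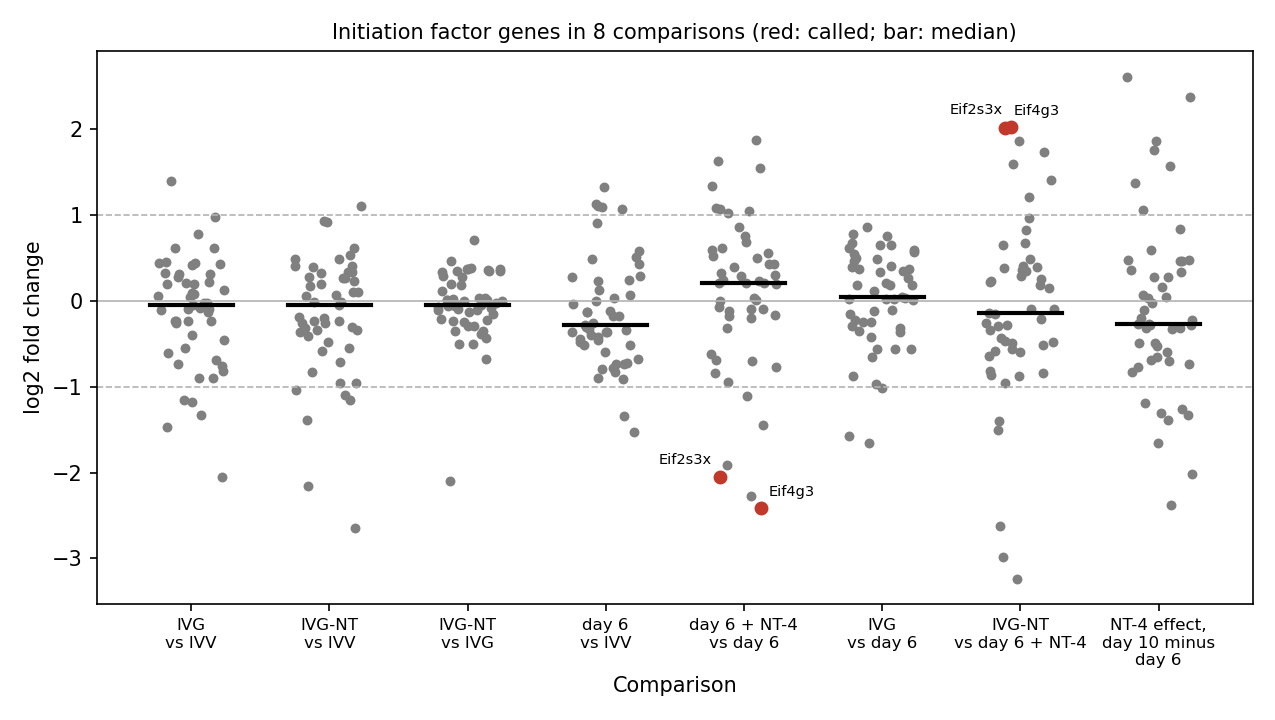
Log2 fold change (vertical axis) of the 51 tested members in 7 comparisons between groups and in the difference of the NT-4 effects (horizontal axis). Each point is a gene, the bar is the median and red points were called. In IVG-NT vs. IVG 1 point lies beyond 1 in size, and in the 3 comparisons that include IVG-NT day 6 12 to 15 do. The called genes are in the 2 of these that compare it with another group.

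Members were called in the 2 comparisons of IVG-NT day 6 with another group, of which the first was NT-4 at day 6. In IVG-NT day 6 vs. IVG day 6, Eif4g3, a scaffold of eIF4F, and Eif2s3x, the gamma subunit of eIF2, were called lower, which is 2 of 51 members against 11.6% of all genes. The same 2 had a P under 0.05, against 2430 genes. Their share is below that of all genes, and no gene had an adjusted p under 0.05 in edgeR's test. The 2 calls are given as a description, and nothing on the list is read from them.

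Eif4g3 was 26.5, 25.9 and 5.82 FPKM in IVG day 6 and 3.19, 3.59 and 4.96 in IVG-NT day 6. The groups did not overlap, and the 2 high libraries of IVG day 6 were its rRNA-rich ones. Its log2 fold change was -2.42 ± 0.88 (SE, adjusted p = 0.381 in edgeR's test). In the other groups it was 5.07, 14.3 and 4.95 in IVV, 20.3, 21.8 and 7.49 in IVG and 19.0, 18.4 and 4.93 in IVG-NT. All 6 rRNA-poor libraries lay between 4.93 and 7.49, and of the rRNA-rich ones only the 2 of IVG-NT day 6 were not above them. Eif4g3 (chr4:137993022-138208508, plus strand, GENCODE vM21 on GRCm38) has no 50-base stretch in another gene.

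Eif2s3x was 25.5, 29.3 and 12.5 FPKM in IVG day 6 and 4.76, 4.01 and 8.94 in IVG-NT day 6, again with no overlap. The log2 fold change was -2.05 ± 0.84 (SE, adjusted p = 0.393 in edgeR's test). It was 9.89, 12.8 and 10.8 in IVV, 38.5, 37.3 and 9.60 in IVG and 28.0, 27.9 and 6.28 in IVG-NT. The rRNA-poor libraries lay between 6.28 and 12.5. Of its 50-base stretches 34.6% occur in another gene, mostly Gm2223, which had 0 to 178 counts.

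The 2 rRNA-rich libraries of IVG-NT day 6 are the 2 shallow ones, with 210 and 283 counts of Eif4g3 and 108 and 109 of Eif2s3x, so among the rRNA-rich libraries of day 6 NT-4 and low depth cannot be told apart. In the rRNA-rich libraries alone, edgeR's test gave a log2 fold change of -2.98 for Eif4g3 (adjusted p = 0.0473) and -2.70 for Eif2s3x (adjusted p = 0.0829), with 8 of 51 members called, against 18.1% of all genes. In the 1 rRNA-poor library of each group, the FPKM were 5.82 and 4.96 for Eif4g3 and 12.5 and 8.94 for Eif2s3x. Without the shallow libraries Eif4g3 was at -2.28 and Eif2s3x at -1.61. That left 1 library in IVG-NT day 6, so no calls are given for that fit. Without IVG day 6 replicate 2 neither gene was past the threshold (-1.98 and -1.62). Eif2s3x was not past it either without IVG day 6 replicate 1 (-1.98) or IVG-NT day 6 replicate 1 (-1.90) or 2 (-1.89). DESeq2's size factors (-1.59), a fit of the 2 groups alone (-1.94) and the replicate block (-1.60) also ended the call of Eif2s3x. Leukocyte markers summed highest in a shallow library, at 53.1 CPM, and their part in these results was not tested.

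Eif4b, which stimulates the helicase, had the smallest P above 0, at 1.63 ± 0.78 (SE, adjusted p = 0.434 in edgeR's test). It was 28.9, 26.0 and 28.3 FPKM in IVG day 6 and 23.9, 174 and 25.9 in IVG-NT day 6. The difference was that of 1 shallow library, replicate 2, and without it the log2 fold change was -0.23.

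By role, 13 of the 14 eIF3 genes were above 0 in IVG-NT day 6 vs. IVG day 6, with a median log2 fold change of 0.24, and all 4 eIF2 kinases were below 0, with a median of -0.98. The members' median was 0.21 and that of all genes -0.27, with no eIF3 gene or kinase called. Without the shallow libraries 13 of the 14 eIF3 genes were above 0 (median 0.73, with 0 for all genes), and without replicate 3 of IVG-NT day 6, the rRNA-poor one, 6 of 14 were (median -0.12, with -1.13 for all genes). The kinases were Eif2ak1 at -0.85 ± 0.60, Eif2ak2 at -0.77 ± 1.61, Eif2ak3 (PERK, of the endoplasmic reticulum) at -1.11 ± 0.90 and Eif2ak4 (GCN2, known for sensing uncharged tRNA) at -1.44 ± 0.76 (SE), with adjusted p of 0.464 or more in edgeR's test.

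**Figure D3:**
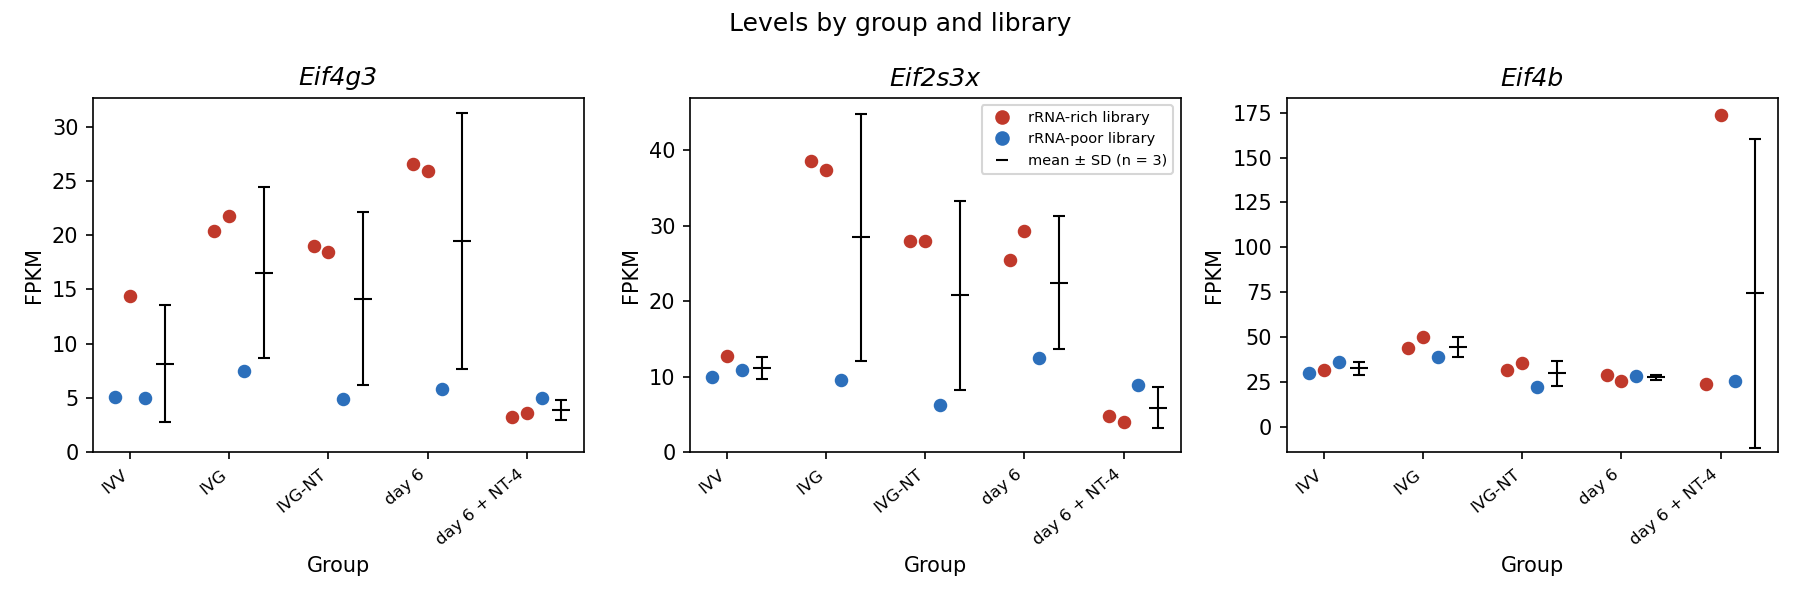
FPKM of Eif4g3, Eif2s3x and Eif4b (vertical axes, each from its own scale) in the 3 libraries of each group (points, red for rRNA-rich and blue for rRNA-poor) with the mean ± SD beside them. Blue points are near level across the groups in Eif4g3, red points are high in IVG, IVG-NT and day 6 without NT-4, and the Eif4b mean of day 6 with NT-4 rests on 1 library at 174.

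From day 6 to day 10 with NT-4 (IVG-NT vs. IVG-NT day 6) the same 2 genes were called higher, which is 2 of 51 against 12.7% of all genes, and the same 2 had a P under 0.05, against 2661 genes. Eif2s3x was at 2.03 ± 0.84 (SE, adjusted p = 0.357) and Eif4g3 at 2.02 ± 0.87 (adjusted p = 0.367, edgeR's test). This comparison shares the 3 IVG-NT day 6 libraries with the one before, so it is no independent result. In FPKM the groups overlapped for both, since IVG-NT replicate 3 was at 4.93 and 6.28. Without the shallow libraries, which left 1 library in IVG-NT day 6, Eif4g3 was at 1.87 and Eif2s3x at 1.57. Neither gene was past the threshold without replicate 1 or 2 of IVG-NT or of IVG-NT day 6. The values were then 1.63 to 1.86 for Eif2s3x and 1.63 to 2.03 for Eif4g3. Eif4g3 was also not past it without IVG-NT day 6 replicate 3 (2.04). DESeq2's size factors (1.48 and 1.46 for Eif2s3x and Eif4g3), its Wald test and a fit of the 2 groups alone (1.95 and 1.94) ended both calls, and the replicate block (1.46) that of Eif2s3x. With the size factors 3 other members were called, all lower (Eif2b4, Eif4b and Eif5b), against 12.9% of all genes. Eif4b was at -1.40 ± 0.77, and at 0.44 without IVG-NT day 6 replicate 2. The members' median was -0.14 and that of all genes 0.40.

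Whether NT-4 acted differently at the 2 days was tested as the difference of its effects, day 10 minus day 6. No member was called, against 6.37% of all genes, and none had a P under 0.05, against 1339 genes. Eif4g3 came nearest above 0, at 2.37 ± 1.19 (SE, adjusted p = 0.812 in edgeR's test), and Eif4b below 0, at -2.02 ± 1.08 (adjusted p = 0.846, edgeR's test). So in this fit the call of Eif4g3 at day 6 and its absence at day 10 were not shown to differ. The difference was past the threshold with kind as a covariate (1.71, adjusted p = 0.525), in rRNA-rich libraries only (2.99, adjusted p = 0.173), without IVG day 6 replicate 3 (2.84, adjusted p = 0.691) and without IVG-NT replicate 3 (2.82, adjusted p = 0.735, edgeR's test for all).

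Members whose TMM-normalized CPM did not overlap between groups of 3 were few. In IVG vs. IVV, Eif3l and Eif4a3 were above and Eif2ak2 below, against 11.9% of all genes without overlap. In IVG-NT vs. IVV, Eif2a, Eif2ak3 and Eif4a3 were above and Eif2ak2 and Eif3b below, against 11.6%. In IVG-NT vs. IVG, Eif2b4 was above and Eif2ak2, Eif2b5 and Eif4h below, against 3.59%.

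In IVG day 6 vs. IVV, Eif3m was above and Eif3b below, against 11.7% of all genes. In IVG-NT day 6 vs. IVG day 6, Eif3a was above and Eif2ak1, Eif2ak4, Eif2s3x and Eif4g3 below, against 8.45%. For IVG vs. IVG day 6 these were Eif2b2 and Eif3d above and Eif3m below, against 7.42%, and for IVG-NT vs. IVG-NT day 6 Eif2ak4 above and Eif1a below, against 11.0%. These members were 4 of 51 in IVG-NT vs. IVG, against 3.59% of all genes. In IVG-NT day 6 vs. IVG day 6 they were 5 of 51, near the 8.45% of all genes. In the other 5 comparisons their share was below that of all genes. Nothing on the list as a whole is read from these counts. Eif2ak2 rested on few reads, with 30, 49 and 59 counts in IVG and 8 in each IVG-NT library.

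More members were called between the kinds of library than between any groups. In the 4 in vitro groups the kind followed the replicate number, so kind and number cannot be told apart there. Within groups, 22 of 51 (43.1%) were called between rRNA-rich and rRNA-poor libraries, against 35.1% of all genes, and 22 (43.1%) had an adjusted p under 0.05, against 23.7%. Of the called members 7 were higher in rRNA-rich libraries, against 12.3% of all genes, and 15 lower, against 22.8%. The members' median log2 fold change, -0.55, was near that of all genes, -0.54. Depth moved with the kind, at 5954262 to 43454380 counts in the rRNA-rich and 38502847 to 55593251 in the rRNA-poor libraries, and its part was not tested.

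Of the 6 scanning genes 5 were below 0 and 3 called lower in rRNA-rich libraries. Eif1ax had 42.5 to 215 CPM in the 9 rRNA-rich and 593 to 834 in the 6 rRNA-poor libraries, a log2 fold change of -2.54 ± 0.30 (SE, adjusted p = 5.5e-05 in edgeR's test). Eif6 had 121 to 371 CPM against 420.4 to 1215, at -1.68 ± 0.25 (adjusted p = 0.00039 in edgeR's test). Eif2s2 had 147 to 626 CPM against 646 to 1465, at -1.92 ± 0.30 (adjusted p = 0.000488 in edgeR's test). In all 3 genes every rRNA-rich library was below every rRNA-poor one. Of the 14 eIF3 genes 13 were below 0 and 6 of them were called, with a median of -1.06.

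On the higher side were eIF4F genes, of which 7 of 11 were above 0 and 5 called, with a median log2 fold change of 0.90. The 3 scaffolds Eif4g1, Eif4g2 and Eif4g3 were all among them. Under DESeq2's size factors or its Wald test 3 of the 11 were called higher and 1 lower, and Eif4g2 was not past the threshold. Eif4e3 had 287 to 504 CPM in the rRNA-rich and 141 to 216 in the rRNA-poor libraries, at 1.08 ± 0.20 (SE, adjusted p = 0.00202 in edgeR's test), with no overlap. Under DESeq2's size factors, its Wald test and no filter it was under the threshold of 1 (0.93, 0.93 and 0.99). Gm20696, which can take part of its reads, had 17 to 997 counts in the rRNA-rich libraries. In the rRNA-poor ones Gm20696 had 92 to 2803, and its part in the difference of Eif4e3 was not tested.

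Eif4g3 had 37.9 to 350 CPM against 45.0 to 66.5, at 1.67 ± 0.36 (adjusted p = 0.00456 in edgeR's test), and Eif4g1 42.5 to 287 against 21.4 to 60.9, at 1.94 ± 0.42 (adjusted p = 0.00524 in edgeR's test). Their ranges overlapped through the shallow libraries. Counting without the 2 shallow libraries, 9 of 51 members lay wholly above the rRNA-poor range, against 11.1% of all genes, and 13 wholly below it, against 13.8%. With them 1 lay above, against 2.88%, and 11 below, against 10.3%. The repressors of eIF4E split, with Eif4ebp1 called lower (-3.94 ± 0.94) and Eif4ebp2 called higher (1.71 ± 0.50).

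Across genes, which are not independent replicates, the difference between kinds had a Spearman correlation with exonic length of 0.282 over the 51 members and 0.472 over 20977 genes. As a description of the order of the 53 levels, Spearman correlations between libraries were 0.953 to 0.988 among the rRNA-poor ones (15 pairs), 0.591 to 0.992 among the rRNA-rich (36 pairs) and 0.573 to 0.829 between kinds (54 pairs). Without the shallow libraries they were 0.844 to 0.992 (21 pairs) and 0.670 to 0.829 (42 pairs). These libraries share genes and lengths, and the rRNA-poor pairs come from all 5 groups.

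**Figure D4:**
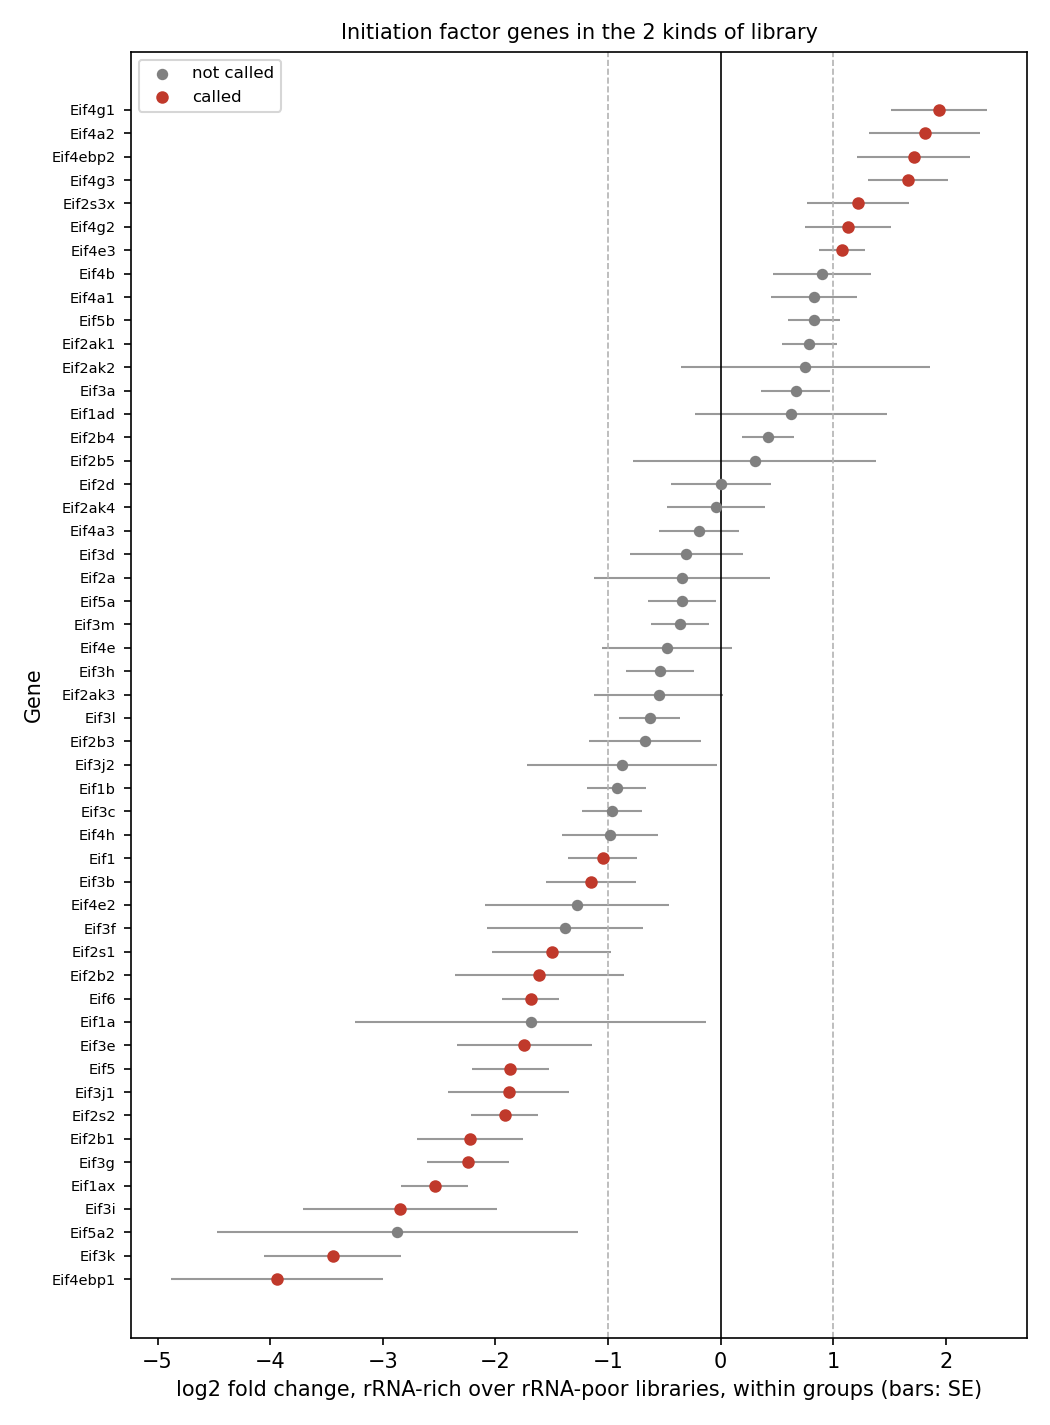
Log2 fold change of the 51 tested members between the 9 rRNA-rich and the 6 rRNA-poor libraries within groups (horizontal axis, bars are SE), ordered by size (vertical axis). Red points were called: 15 to the left, from Eif4ebp1 at -3.94, and 7 to the right, up to Eif4g1 at 1.94. The 3 Eif4g genes are on the right, and Eif4ebp1 had 0 to 136 counts in the rRNA-rich libraries.

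In 33 other genes of the pathway (poly(A)-binding proteins, recycling and reinitiation factors, the mTOR and MNK kinases, eIF2 phosphatase subunits and similar), calls were made in the 2 comparisons of IVG-NT day 6 with another group, and none in the other 5 or in the difference of the NT-4 effects. In IVG-NT day 6 vs. IVG day 6 these were 3 of 33, against 11.6% of all genes. In IVG-NT vs. IVG-NT day 6 it was 1 of 33, against 12.7%. Both shares are below that of all genes. In IVG-NT day 6 vs. IVG day 6, Mtor, the kinase that acts on the 4E-binding proteins, was called lower at -2.41 ± 1.06, with 160, 104 and 41.2 CPM in IVG day 6 and 37.6, 1.04 and 19.0 in IVG-NT day 6. Ppp1r15b, which targets a phosphatase to eIF2, was also called lower at -2.26 ± 0.99. It had 74.6, 103 and 35.1 CPM in IVG day 6 and 18.4, 2.78 and 23.0 in IVG-NT day 6. In both genes the high IVG day 6 values were the rRNA-rich libraries, as in IVV, IVG and IVG-NT. The first 2 values of IVG-NT day 6 were the shallow libraries, so NT-4 and low depth cannot be told apart there. Mcts2 was called higher at 5.22 ± 2.26, from 123 CPM in 1 shallow library beside 0 and 3.16 in the other 2, and in IVG-NT vs. IVG-NT day 6 it was the 1 gene called, lower, at -5.27 ± 2.27 (SE, adjusted p = 0.367 in edgeR's test). At day 6 the adjusted p of these 3 were 0.407, 0.407 and 0.400 in edgeR's test. Between kinds of library 5 of the 33 were called higher, against 12.3% of all genes, and 3 lower, against 22.8%.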

How the data were processed

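Pools of 6 oocytes were sequenced in 15 libraries. The authors aligned the reads to mm10 with HISAT2, ran StringTie, and deposited raw counts for each Ensembl gene in each library. How the counts per gene were taken and the annotation release are not given in the sources used here. Libraries were taken as unstranded and without molecular identifiers, so intervals and floors would cover counting error only. Groups came from the sample titles. Symbols, roles and exons came from GENCODE vM21, and 99.5% of identifiers had a symbol.

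Genes were kept by filterByExpr (minimum count 10), normalized by TMM and tested with edgeR 4.0.16 (quasi-likelihood F test, R 4.3.3) as group means over 15 libraries (10 residual degrees of freedom). The kind of library was tested in a model with group, with 5% of counts in CT010467.1 as the limit. The test was tested on simulated data. Alternatives were DESeq2 1.42.0 size factors and Wald test, no filter, only the groups compared, kind as a covariate, rRNA-rich libraries only, a replicate block, and leaving out each library. Leaving out the 2 libraries under 10000000 counts was added after seeing the data.

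Same-numbered libraries deviated together in IVG-NT vs. IVG (correlations of 0.37, 0.413 and 0.732) and IVG vs. IVG day 6 (0.23, 0.147 and 0.538), and the pairing was read from these values, since no source says which libraries share an experiment. The kind of library followed the number in these groups, so these correlations cannot tell a shared experiment from a shared kind. Members, role lists and pathway genes were chosen with earlier results of these data known. Tested values are given for called members and for the smallest P in each direction of a comparison (3 each between kinds), and levels for the highest member of each role and for paralogs. Other members named were chosen after their values were seen.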

Additional observations from a re-analysis of the deposited data

How the results depend on the processing

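Of 278 log2 fold changes of named members under alternatives, 214 kept their direction and side of the threshold, 31 were no longer past it, 29 came past it and 4 reversed. The 4 were Eif4b without IVG-NT day 6 replicate 2 (-0.23 against IVG day 6, 0.44 for IVG-NT against it) and without the 2 shallow libraries (-0.32 and 0.53), and leaving out 1 library gave it -0.23 to 2.09 and -1.87 to 0.44. With 0 members called in the report's test, IVG vs. IVV gave 1 with kind as a covariate (3.83% of all genes) and 1 with the replicate block (2.54%). IVG-NT vs. IVV gave 1 by the Wald test (2.69%) and 1 with only the groups compared (4.10%). Among the rRNA-rich libraries IVV has 1, so no counts are given for its comparisons there. For the block, IVV shared only numbers 2 and 3 with the other groups, with correlations of -0.216 to -0.522, and its deposited files are numbered differently from the titles used. IVG vs. IVG day 6 gave 1 with kind as a covariate (4.86% of all genes), 2 in rRNA-rich libraries (1.77%) and 1 with the replicate block (2.51%). The difference of NT-4 effects gave 1 with size factors (6.73% of all genes), 1 by the Wald test (5.84%), 3 with kind as a covariate (8.96%) and 7 in rRNA-rich libraries (11.8%).

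Without the shallow libraries IVG-NT day 6 has 1, so no counts are given for its comparisons there. IVG-NT day 6 vs. IVG day 6 had 2 called. It gave 5 by the Wald test (12.6% of all genes) and 1 with only the groups compared (3.06%). With kind as a covariate it gave 5 (15.8%), and in rRNA-rich libraries 8 (18.1%). IVG-NT vs. IVG-NT day 6, also with 2, gave 6 (13.0%), 0 (4.51%), 4 (16.9%) and 13 (19.5%) in that order. There the 2 calls of the report's test were higher, while the 6 by the Wald test and 3 with size factors were all lower, and did not include them. Leaving out 1 library gave 0 to 3 called in IVG vs. IVV (3 without IVG replicate 3, against 4.56% of all genes). It gave 0 to 2 in IVG-NT vs. IVV (2 without IVG-NT replicate 3, against 4.77%). In IVG day 6 vs. IVV it gave 0 to 1 (1 without IVV replicate 3, against 4.54%, or without IVG day 6 replicate 3, against 5.97%). In IVG vs. IVG day 6 it gave 0 to 2 (2 without IVG replicate 3, against 2.33%). The range was 0 to 15 in IVG-NT day 6 vs. IVG day 6, 0 to 13 in IVG-NT vs. IVG-NT day 6 and 0 to 8 in the difference of effects. The last 3 were highest without IVG-NT day 6 replicate 3, the deep library of that group, which left the 2 shallow ones, where 29.1%, 30.8% and 21.1% of all genes were called. The causes were not tested. IVG-NT vs. IVG gave 0 under every alternative run. Between kinds 22 members were called (35.1% of all genes), and 19 to 25 under the alternatives. These were 19 in the 12 in vitro libraries alone (29.2%), 24 with size factors (36.5%), 25 by the Wald test (43.0%) and 25 with no filter (23.6%).

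Size factors moved the median log2 fold change of all genes from -0.27 to 0.00 in IVG-NT day 6 vs. IVG day 6, from 0.40 to 0.04 in IVG-NT vs. IVG-NT day 6 and from -0.54 to -0.71 between kinds, and the called genes of the first went from 1416 higher and 1014 lower to 1867 and 679. Same-numbered libraries of IVG-NT day 6 had correlations of 0.0833, 0.107 and 0.328 with those of IVG day 6. With those of IVG-NT they had 0.0803, 0.0663 and 0.26. Whether they share an experiment is not stated. In these pairs of groups the replicate block gave 2 members called in each. These were Eif4g3 with Eif4ebp1 against IVG day 6 (7.32% of all genes) and Eif4g3 with Eif2ak1 in IVG-NT against IVG-NT day 6 (8.46%). Depth limits the shallow libraries most, with 45 members counted in the lowest.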
